A study of Mus with 6 samples.

Results

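The 10 genes described here encode receptors for neuropeptides that act in the circuits of fear learning: Oxtr (oxytocin), Crhr1 (corticotropin-releasing hormone), Npy1r, Npy2r and Npy5r (neuropeptide Y), Sstr1, Sstr2 and Sstr4 (somatostatin), Cckbr (cholecystokinin) and Oprm1 (the mu opioid receptor). They were taken by gene name from the deposited table of 54532 genes, and each name matched 1 row. Expression was measured in the basolateral amygdala, where sensory and cortical inputs converge during fear learning, of mice labelled female. The labels gave 3 libraries from mice in which Cntnap4, a contactin-associated membrane protein of interneurons, was knocked out (labelled CNTNAP4-KO, here KO), and 3 from wild-type mice (WT), numbered 1 to 3 in each group. Neither the knockout allele nor the strain and age of the mice are given in the labels, nor whether each library is from its own animal, so the p-values measure the spread between these libraries, which may be technical. The series title names a bacterial treatment, but the 6 samples carry no such label.

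Neuropeptides are released from dense-core vesicles, often by interneurons that also release GABA, and act over longer distances and times than fast transmitters. All 10 receptors couple to G proteins. The somatostatin, neuropeptide Y and mu opioid receptors act mainly through the inhibitory Gi/o proteins, which close calcium channels and open inward-rectifier potassium channels. The oxytocin and cholecystokinin B receptors act mainly through Gq and phospholipase C, and the receptor encoded by Crhr1 through Gs and cyclic AMP. In the basolateral amygdala neuropeptide Y dampens fear and anxiety-like behaviour, whereas corticotropin-releasing hormone and cholecystokinin promote them.

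Values are FPKM, fragments per kilobase of gene scaled per library by the authors, which allows levels to be compared between genes. The libraries held 15933029 to 17789798 reads, recovered from the FPKM and gene lengths. The library size that the scaling implies was between 0.964 (KO1) and 1.05 (WT1) times the recovered reads, so it was not their plain total. Cntnap4 was at 1.08, 1.19 and 1.28 FPKM in KO1 to KO3, against 3.53, 3.90 and 2.15 in WT1 to WT3. Markers of basolateral projection neurons were present throughout: all 15 listed were tested, 0 were at 0 in every library, and they summed to 920 to 1130 FPKM in KO and 822 to 1120 in WT. Ppp1r1b is on both this list and the striatal one. Averaged over its genes as log2(FPKM + 1), the list was below its mean over the 6 libraries in WT1 (-0.31) and WT3 (-0.14). The libraries also differed in markers of neighbouring regions. The 20 listed hypothalamic and neighbouring markers, of which Hmx3 was at 0 in every library, summed to 40.3, 24.0 and 59.2 FPKM in KO1 to KO3, against 360, 161 and 67.4 in WT1 to WT3. Most of that sum in every library came from 1 gene, Nnat, and only 6 of the 20 were tested. The 15 listed striatal markers, none of them at 0 in every library, summed to 499 FPKM in KO3 and 1140 in WT3, against 111 to 261 in the other 4 libraries. Fold changes with WT3 as the only WT library are also given below for all tested receptors. In bulk tissue, fewer cells of a type and less RNA per cell cannot be told apart.

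Cckbr had the highest level of the 10 receptors in both groups and Oprm1 the lowest. The order in KO was Cckbr, Sstr4, Sstr2, Crhr1, Sstr1, Npy1r, Npy5r, Npy2r, Oxtr and Oprm1, with group means between 27.3 and 0.204 FPKM. The order in WT was Cckbr, Sstr2, Sstr1, Crhr1, Sstr4, Npy1r, Npy2r, Oxtr, Npy5r and Oprm1, with means between 20.9 and 0.166 FPKM. Neighbours in the KO order had overlapping ranges from Sstr4 down to Npy1r, and so did Npy2r and Oxtr. In WT every pair of neighbours from Cckbr down to Oxtr overlapped in range. Within each WT library Cckbr was still the highest receptor, at 23.7, 23.3 and 15.7 FPKM in WT1 to WT3. Each pair of neighbours from Sstr2 down to Oxtr changed order between WT libraries, so 3 libraries do not resolve those pairs. Cckbr exceeded 86.3% of tested genes by its KO mean and 81.8% by its WT mean.

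**Figure D1:**
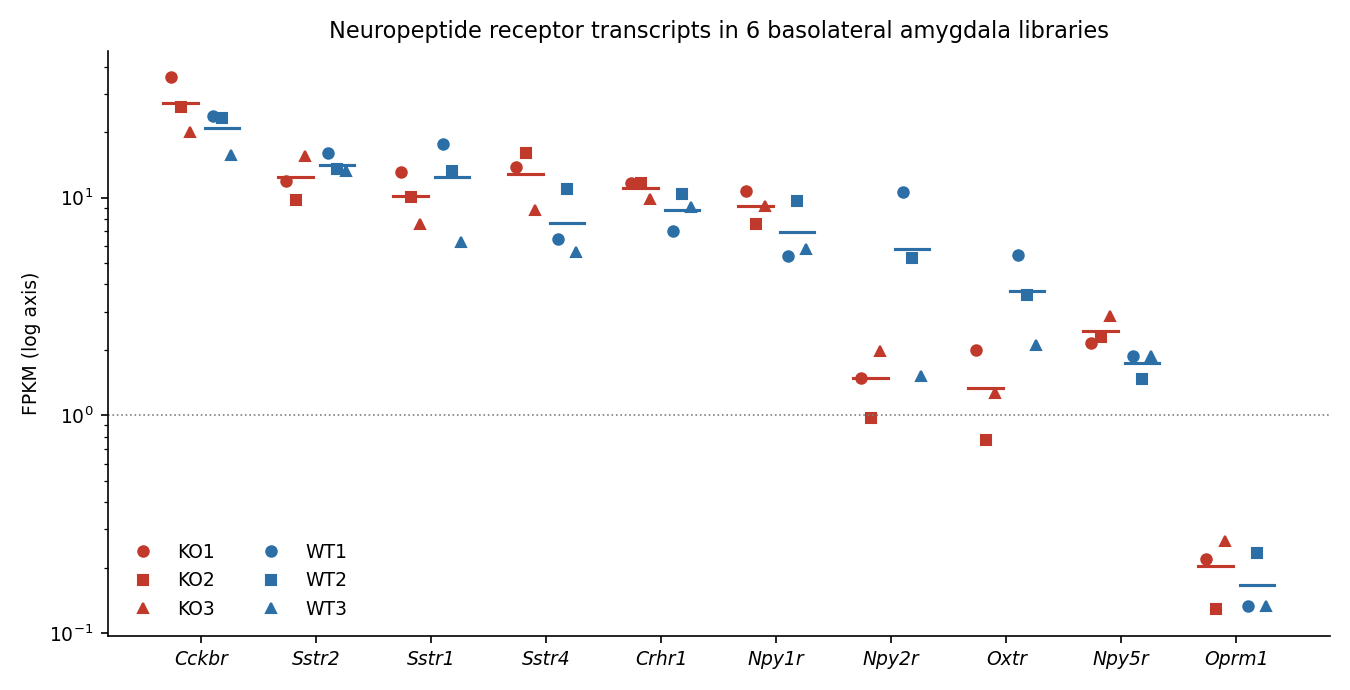
FPKM of the 10 receptor genes on a log axis, with KO libraries in red at the left of each gene and WT libraries in blue at the right. Points are single libraries (circle, square and triangle for libraries 1, 2 and 3), short lines are group means and the dotted line is the level filter of 1 FPKM. Npy2r shows the widest span among the WT libraries, and the 3 Oxtr values of KO lie below all 3 of WT.

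KO was compared with WT across all genes with a mean of at least 1 FPKM (limma on log2(FPKM + 1), Benjamini-Hochberg adjustment, threshold 0.05). Of the 10 receptors 9 passed this filter, and Oprm1 did not. None of the 9 passed the threshold, and across all 13087 genes tested 1 did (Rps27a, lower in KO), which is 0.00764% of them. The count over all genes was 0 with the replicate number as a block, 9 without WT3 and 0 without any other single library, and no receptor passed in any of these fits. At an unadjusted p under 0.05, 2 receptors were higher in KO (Sstr4 and Npy5r) and 2 were lower (Oxtr and Npy2r), against 7.05% and 7.25% of all genes tested, or 14.3% in either direction. With the replicate number as a block the same 4 were below 0.05. Cckbr joined the higher ones (unadjusted p = 0.0232 in limma) and was higher in KO for each library number. This stands against 7.86% of genes higher and 9.92% lower in that fit. The labels do not say that equal numbers pair the libraries, and the block was taken from the data. The KO and WT values did not overlap for Oxtr (every KO value below) and Npy5r (every KO value above), against 10.1% and 11.9% of genes tested. Of the 9, 5 had a positive and 4 a negative log2 fold change, where 51.3% of all genes tested were positive. The median of the 9 was 0.31, beside 0.01 over all genes tested. With FPKM rescaled to a common sum per library, the genes at an unadjusted p under 0.05 split into 1224 higher and 580 lower, against 923 and 949 with the deposited scaling, and 1 gene passed. That rescaling changed no receptor's direction.

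**Figure D2:**
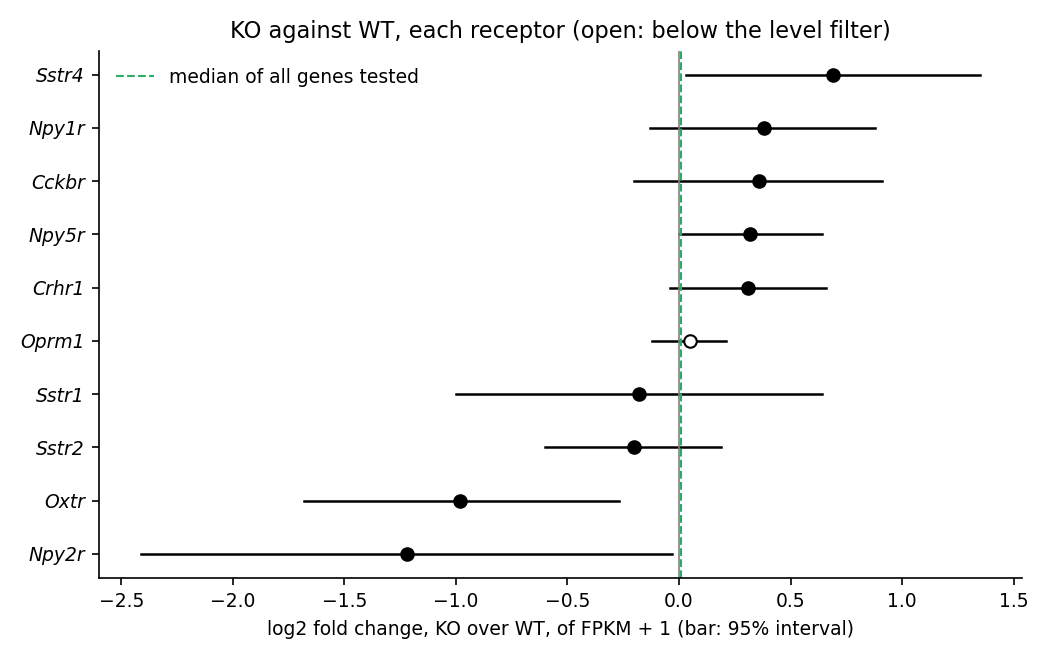
Log2 fold change of KO over WT on the log2(FPKM + 1) scale for each receptor, ordered from the highest to the lowest, with 95% intervals from limma. Filled points passed the level filter, the open point (Oprm1) comes from the fit with no filter, and the dashed green line is the median of all genes tested, 0.01. Npy2r and Oxtr have the most negative values and Sstr4 the most positive.

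Oxtr encodes the receptor through which oxytocin excites a subset of amygdala interneurons. Its level was 2.00, 0.770 and 1.27 FPKM in KO1 to KO3, against 5.47, 3.57 and 2.10 in WT1 to WT3. Every KO library lay below every WT library, but KO1 and WT3 were close, with counting intervals of 1.70 to 2.33 and 1.80 to 2.44 FPKM (exact Poisson, 95%). These intervals cover counting error only. The group means were 1.34 ± 0.62 FPKM in KO and 3.71 ± 1.69 in WT (SD, n = 3 each), a ratio of 0.362, on 321 reads in KO and 934 in WT. KO differed from WT by a log2 fold change of -0.98 (SE 0.30, 95% interval -1.68 to -0.27, limma adjusted p = 0.303). For a single gene the exact two-sided permutation p was 0.1, the smallest that 3 libraries against 3 can give. With the most weight on libraries that varied least (limma array weights) the adjusted p was 0.0956, its lowest under any alternative tried. With WT3 as the only WT library the log2 fold change was -0.44 (limma adjusted p = 0.573, the lone library being assumed to vary like those of KO). The gene (ENSMUSG00000049112) lies on the minus strand of chromosome 6 from 112473683 to 112489943, in the table's coordinates (GRCm38 or mm10 per the submitters' processing notes, here and below).

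Crhr1 encodes the main brain receptor for corticotropin-releasing hormone. It was at 11.7, 11.7 and 9.87 FPKM in KO1 to KO3, against 7.0, 10.4 and 9.10 in WT1 to WT3. WT2 lay above KO3, so the groups overlapped. The means were 11.1 ± 1.05 FPKM in KO and 8.82 ± 1.70 in WT (SD, n = 3 each), with a log2 fold change of 0.31 (SE 0.15, 95% interval -0.04 to 0.66, limma adjusted p = 0.379). Without WT1, which had the lowest value, the log2 fold change was 0.17. Crhr1 (ENSMUSG00000018634) lies on the plus strand of chromosome 11 from 104132855 to 104175523.

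Npy2r, the receptor by which neuropeptide Y terminals reduce their own release, had the most uneven levels of the receptors tested. It was at 1.49, 0.972 and 1.97 FPKM in KO1 to KO3, against 10.6, 5.29 and 1.52 in WT1 to WT3. WT1 and WT2 stood above the rest, while WT3 lay among the KO libraries. The SD of log2(FPKM + 1) among WT libraries was 1.11, more than for 99.1% of genes tested, whose median was 0.17, and among KO libraries it was 0.30. Counting error is small beside this: the 672 reads in WT1 gave an interval of 9.83 to 11.5 FPKM, and the 87 reads in WT3 one of 1.22 to 1.88. The means were 1.48 ± 0.50 FPKM in KO and 5.81 ± 4.57 in WT (SD, n = 3 each), a ratio of 0.255. KO differed from WT by a log2 fold change of -1.22 (SE 0.50, 95% interval -2.41 to -0.03, limma adjusted p = 0.344). It was -0.70 without WT1, -1.81 without WT3 (limma adjusted p = 0.124), and -0.05 (limma adjusted p = 0.952) with WT3 as the only WT library. The gene (ENSMUSG00000028004) lies on the minus strand of chromosome 3 from 82538383 to 82548084.

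The 3 tested protein-coding genes whose profile over the 6 libraries was most like that of Npy2r were Zcchc12, Tmem255a and AW551984. Likeness was the root mean square difference of log2(FPKM + 1), each gene centred on its own mean over the 6 libraries, and it came to 0.08, 0.12 and 0.12. Zcchc12, a transcriptional cofactor of bone morphogenetic protein signalling, was at 13.9, 10.5 and 17.1 FPKM in KO1 to KO3, against 73.2, 37.6 and 16.7 in WT1 to WT3. Tmem255a was at 4.95, 3.31 and 5.39 FPKM in KO, against 20.4, 12.4 and 3.85 in WT. AW551984 was at 0.611, 0.360 and 0.788 FPKM in KO, against 6.93, 3.29 and 0.370 in WT. In each the order WT1, WT2, then the other 4 libraries was that of Npy2r. The hypothalamic and neighbouring markers had the same 2 libraries highest. Of that list Nnat, an imprinted proteolipid gene, was at 32.1, 15.3 and 38.9 FPKM in KO1 to KO3, against 281, 112 and 49.5 in WT1 to WT3. Baiap3, a regulator of dense-core vesicle traffic, was at 0.965, 0.654 and 2.52 FPKM in KO, against 20.6, 11 and 1.53 in WT. All 6 tested members of the list were on average lower in KO than in WT, and their median log2 fold change was -1.73. The other members of the 20 listed did not pass the level filter. Avp, with means of 0.411 FPKM in KO and 4.69 in WT, passed it only through WT. The shared direction of the 6 was therefore partly set by the filter. The part of these regional markers in the Npy2r and Oxtr values was not tested.

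**Figure D3:**
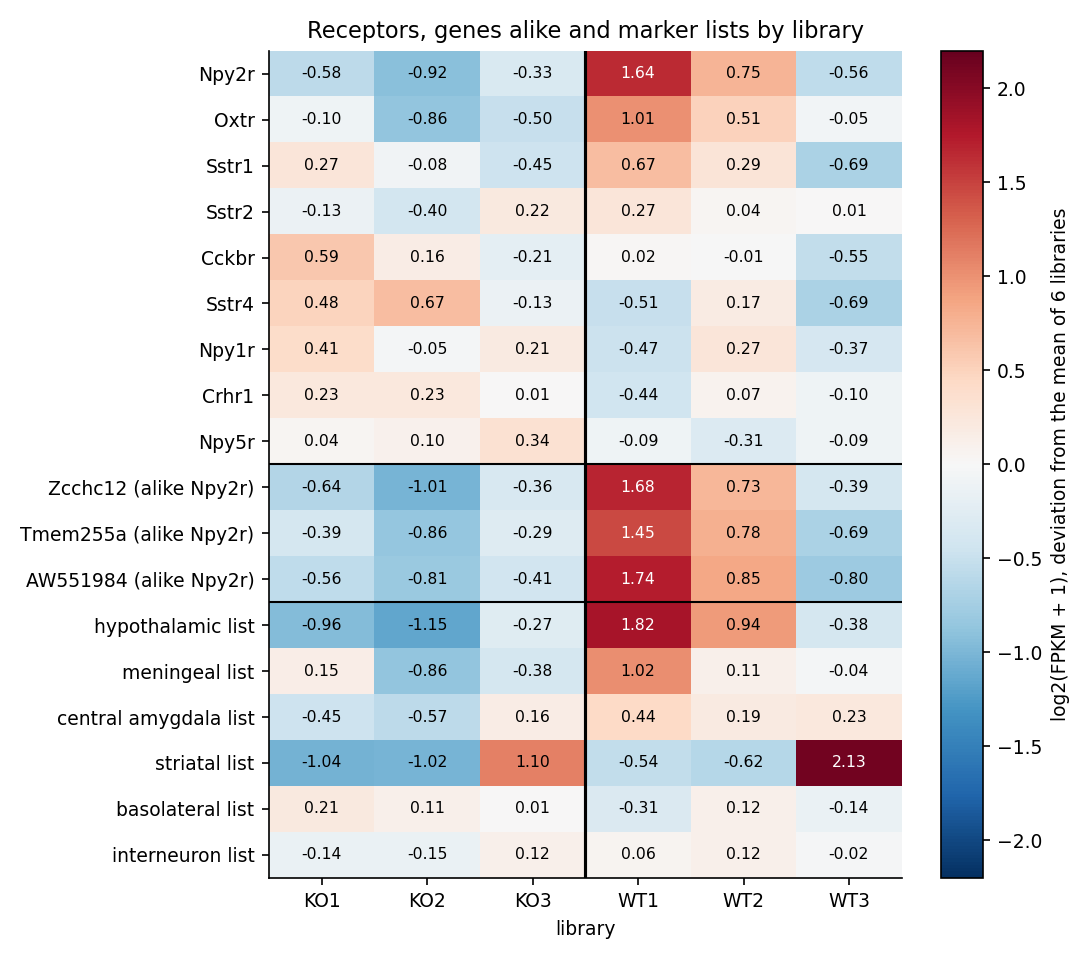
Deviation of log2(FPKM + 1) from the mean of the 6 libraries, with KO libraries at the left of the black line and WT libraries at the right. Rows are the 9 receptors that passed the level filter, the 3 genes most like Npy2r, and the mean over tested members of 6 marker lists; red is above and blue below the mean. Npy2r stands at 1.64 in WT1 and 0.75 in WT2 where the hypothalamic list stands at 1.82 and 0.94, and the striatal list stands at 1.10 in KO3 and 2.13 in WT3.

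Npy1r and Npy5r, the postsynaptic neuropeptide Y receptors, lie back to back on chromosome 8. Npy5r (ENSMUSG00000044014) runs on the minus strand from 66679965 to 66688128, and Npy1r (ENSMUSG00000036437) on the plus strand from 66697192 to 66706792, with 9.06 kb between them. Cntnap4 lies on the same chromosome, 45.9 Mb beyond the end of Npy1r. Npy5r was at 2.14, 2.28 and 2.87 FPKM in KO1 to KO3, against 1.88, 1.47 and 1.88 in WT1 to WT3, so that every KO library was above every WT library. The means were 2.43 ± 0.39 FPKM in KO and 1.74 ± 0.24 in WT (SD, n = 3 each). KO differed from WT by a log2 fold change of 0.32 (SE 0.13, 95% interval 0.00 to 0.64, limma adjusted p = 0.347), and the exact two-sided permutation p was 0.1. Few reads stood behind it, 60 to 121 per library, and the counting intervals of KO1 (1.72 to 2.64 FPKM) and WT1 (1.51 to 2.31) overlapped.

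Npy1r was at 10.7, 7.55 and 9.19 FPKM in KO1 to KO3, against 5.40, 9.68 and 5.83 in WT1 to WT3. WT2 lay within the KO range and the other WT libraries below it. The means were 9.14 ± 1.58 FPKM in KO and 6.97 ± 2.36 in WT (SD, n = 3 each), with a log2 fold change of 0.38 (SE 0.22, 95% interval -0.13 to 0.88, limma adjusted p = 0.443). The log2 fold change was 0.61 without WT2 (limma adjusted p = 0.254), between 0.24 and 0.49 without any other single library, and 0.02 with array weights (limma adjusted p = 0.961). The ratio of Npy1r to Npy5r FPKM was 4.99, 3.31 and 3.20 in KO1 to KO3, against 2.87, 6.61 and 3.11 in WT1 to WT3, so the neighbours did not keep a fixed ratio between libraries of 1 group.

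Summed over the neuropeptide Y receptors, the level was 14.3, 10.8 and 14.0 FPKM in KO1 to KO3, against 17.9, 16.4 and 9.23 in WT1 to WT3. Npy4r and Npy6r were listed at 0 in every library. Npy1r made up 74.6%, 69.9% and 65.5% of the sum in KO1 to KO3, against 30.2%, 58.9% and 63.2% in WT1 to WT3. Npy2r made up 10.4%, 9.0% and 14.1% of it in KO, against 59.3%, 32.2% and 16.5% in WT. The makeup in WT3 was close to that in KO3, and WT1 stood apart, with Npy2r as the main receptor by level.

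The somatostatin receptors mediate the inhibition exerted by somatostatin and cortistatin. Sstr4, whose activation is anxiolytic in mice, was at 13.9, 16.0 and 8.74 FPKM in KO1 to KO3, against 6.46, 11 and 5.61 in WT1 to WT3. WT2 lay above KO3, and otherwise the KO values were the higher ones. The means were 12.9 ± 3.76 FPKM in KO and 7.69 ± 2.90 in WT (SD, n = 3 each), a ratio of 1.68. KO differed from WT by a log2 fold change of 0.69 (SE 0.28, 95% interval 0.03 to 1.35, limma adjusted p = 0.342). Each library numbered 1, 2 or 3 was higher in KO than the WT library of that number, and with the replicate number as a block the adjusted p was 0.221. Sstr4 (ENSMUSG00000037014) lies on the plus strand of chromosome 2 from 148395344 to 148396767.

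Sstr1 was at 13.1, 10.1 and 7.56 FPKM in KO1 to KO3, against 17.7, 13.3 and 6.28 in WT1 to WT3. The lowest and the highest value were both in WT, and WT1 and WT2 were above the KO mean as for Npy2r and Oxtr. The means were 10.2 ± 2.77 FPKM in KO and 12.4 ± 5.78 in WT (SD, n = 3 each), with a log2 fold change of -0.18 (SE 0.35, 95% interval -1.0 to 0.64, limma adjusted p = 0.821). Its direction was not stable: the log2 fold change was 0.11 without WT1 and 0.60 with WT3 as the only WT library. Sstr1 (ENSMUSG00000035431) lies on the plus strand of chromosome 12 from 58211772 to 58214444.

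Sstr2, a Gi/o-coupled receptor that opens potassium channels, was at 11.9, 9.74 and 15.5 FPKM in KO1 to KO3, against 16.0, 13.5 and 13.2 in WT1 to WT3. KO3 lay inside the WT range and the other KO libraries below it. KO differed from WT by a log2 fold change of -0.20 (SE 0.17, 95% interval -0.60 to 0.19, limma adjusted p = 0.584), and it was -0.36 without KO3 and -0.06 without KO2. Sstr2 (ENSMUSG00000047904) lies on the plus strand of chromosome 11 from 113619342 to 113626028.

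With Sstr3 and Sstr5 added, the somatostatin receptors summed to 45.4, 41.4 and 38.3 FPKM in KO1 to KO3, against 48.3, 44.5 and 31.3 in WT1 to WT3. Sstr4 made up 30.7%, 38.7% and 22.8% of the sum in KO, against 13.4%, 24.7% and 18% in WT. Sstr1 made up 28.8%, 24.4% and 19.7% of it in KO, against 36.7%, 29.8% and 20.1% in WT. In both groups the share of Sstr1 was lowest and that of Sstr2 highest in the library numbered 3, at 40.4% for Sstr2 in KO3 and 42.1% in WT3, the libraries with the highest striatal markers. The part of those markers in the makeup was not tested.

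**Figure D4:**
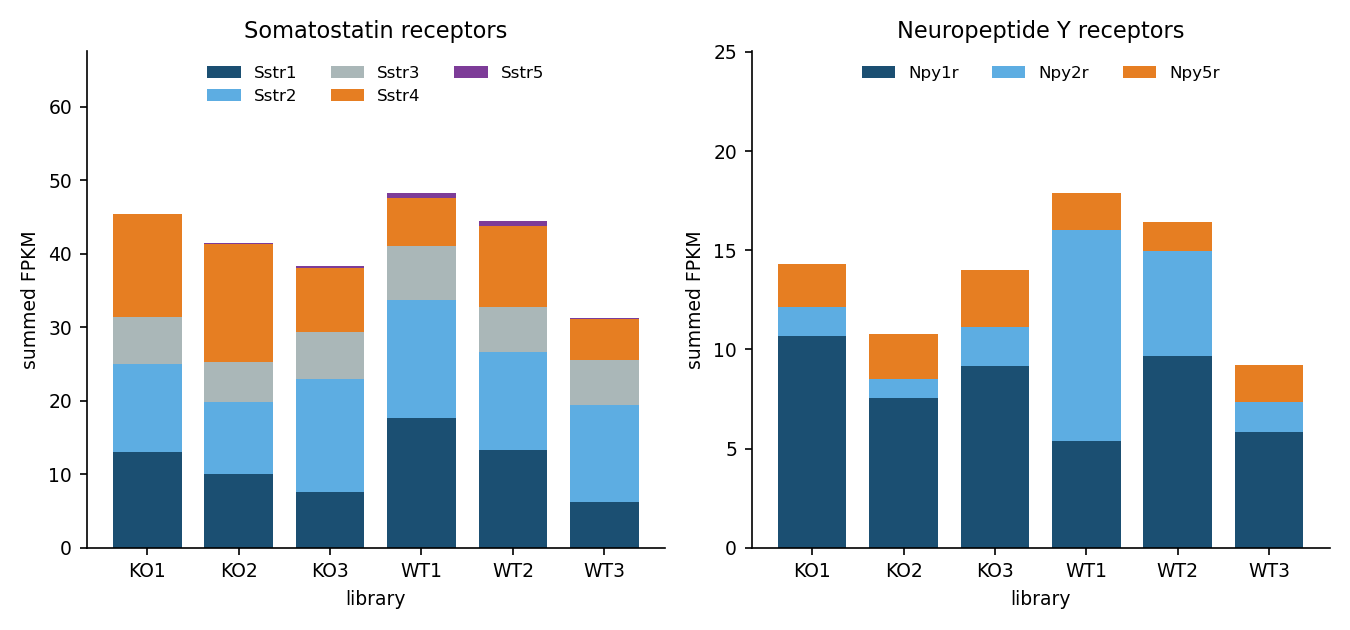
Summed FPKM of the somatostatin receptors (left panel) and the neuropeptide Y receptors (right panel) in each library, KO libraries first, with each receptor's FPKM as a coloured segment of the bar. The Sstr4 segment is tallest in KO2 and KO1, and the Npy2r segment is tallest in WT1 and WT2.

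Cckbr encodes the main cholecystokinin receptor of the brain, through which cholecystokinin excites amygdala neurons. It was at 35.7, 26.2 and 20.1 FPKM in KO1 to KO3, against 23.7, 23.3 and 15.7 in WT1 to WT3. KO1 and KO2 lay above all WT libraries and KO3 within their range. The means were 27.3 ± 7.88 FPKM in KO and 20.9 ± 4.54 in WT (SD, n = 3 each), with a log2 fold change of 0.36 (SE 0.24, 95% interval -0.20 to 0.91, limma adjusted p = 0.500). It was 0.17 without WT3 and 0.15 without KO1. In each group the library numbered 3 had the lowest level. With the replicate number as a block the adjusted p was 0.245. Cckbr (ENSMUSG00000030898) lies on the plus strand of chromosome 7 from 105425731 to 105470898.

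Oprm1, the receptor of enkephalins, beta-endorphin and morphine, was near the limit of detection. It was at 0.220, 0.129 and 0.264 FPKM in KO1 to KO3, against 0.133, 0.233 and 0.133 in WT1 to WT3. These values rested on 29, 18 and 35 reads in KO and 20, 30 and 18 in WT, and the groups overlapped. The counting interval was 0.184 to 0.368 FPKM in KO3, the highest library, and 0.0765 to 0.204 in KO2, the lowest. In the fit with no filter Oprm1 had a log2 fold change of 0.05 (SE 0.07, limma adjusted p = 0.794), and the pseudocount of 1 compresses changes at this level. Its gene length in the table, 8037 bases, is the longest of the 10, and the isoforms behind it are not separated. Oprm1 (ENSMUSG00000000766) lies on the plus strand of chromosome 10 from 6758506 to 7038198.

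The peptides that act on these receptors were compared in the same fit. Of 15 listed, 8 were tested and none passed the threshold, with 0 higher and 2 lower in KO at an unadjusted p under 0.05 and a median log2 fold change of 0.01. This and the list counts that follow stand beside 7.05% of all genes tested higher and 7.25% lower. Sst, the somatostatin precursor, was at 210, 189 and 219 FPKM in KO1 to KO3, against 433, 277 and 237 in WT1 to WT3. Every KO library lay below every WT library, with WT1 well above the rest (log2 fold change -0.57, SE 0.22, limma adjusted p = 0.331). Cort, the precursor of cortistatin, was at 6.47, 8.60 and 4.48 FPKM in KO, against 1.66, 10.9 and 10.1 in WT.

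Npy was at 91.9, 94.2 and 115 FPKM in KO1 to KO3, against 93.8, 67.6 and 101 in WT1 to WT3, with overlapping groups. Cck was at 222, 213 and 173 FPKM in KO, against 212, 227 and 172 in WT, and its log2 fold change of 0.00 had an SE of 0.15. Crh was at 6.64, 5.20 and 5.98 FPKM in KO, against 3.32, 9.03 and 5.20 in WT. The levels of these 3 peptides, each the ligand of a receptor described above, thus overlapped between the groups.

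Penk, the enkephalin precursor, was at 8.76, 12 and 98.3 FPKM in KO1 to KO3, against 138, 43.4 and 250 in WT1 to WT3. It is also a striatal and central amygdala marker, and within each group it was highest in the library numbered 3 (log2 fold change -2.31, SE 0.96, limma adjusted p = 0.346). Pdyn, the dynorphin precursor, was at 12, 11.2 and 15.1 FPKM in KO, against 9.33, 11.5 and 18 in WT. Avp, the precursor of vasopressin, which can also bind the oxytocin receptor, was at 0.528, 0.600 and 0.105 FPKM in KO, against 11.3, 2.16 and 0.616 in WT, where WT1 carried most of the signal. Oxt was below the filter, at 0, 0 and 1.13 FPKM in KO, against 2.39, 0.232 and 0.882 in WT. Pomc was also below the filter, at 0.306 to 0.647 FPKM in KO and 0.771 to 1.03 in WT. Ucn, Ucn2 and Gast were each under 1 FPKM in every library, and Pyy and Ppy were listed at 0.

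Of 42 other neuropeptide receptors listed, 18 were tested and none passed the threshold. At an unadjusted p under 0.05, 1 was higher and 2 were lower in KO, and the median log2 fold change was -0.20. A positive log2 fold change was seen for 4 of the 18, against 51.3% of all genes tested. The 42 summed to 122 to 129 FPKM in KO and 141 to 163 in WT. Mchr1, the receptor of melanin-concentrating hormone, was at 6.84, 7.88 and 8.84 FPKM in KO1 to KO3, against 8.94, 9.92 and 12.3 in WT1 to WT3. Calcrl, a vascular receptor of calcitonin gene-related peptide and adrenomedullin, was at 1.32, 1.07 and 1.47 FPKM in KO, against 1.96, 1.75 and 1.94 in WT. Mc4r, a melanocortin receptor, was at 1.46, 1.30 and 1.43 FPKM in KO, against 1.07, 0.928 and 0.387 in WT. These 3 had the smallest p of the list, their limma adjusted p lay between 0.323 and 0.345, and none overlapped between the groups. Over the whole list every KO value lay above every WT value for 1 tested receptor and below for 2. The shares over all genes tested were 11.9% and 10.1%.

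Among genes of Gi/o signalling, 21 of 22 were tested and none passed, with 1 higher and 3 lower at an unadjusted p under 0.05 and a median log2 fold change of -0.04. Kcnj3, a subunit of the potassium channel that Gi/o-coupled receptors open, was at 30.3, 25.9 and 25.6 FPKM in KO1 to KO3, against 18.5, 21.2 and 21.7 in WT1 to WT3 (limma adjusted p = 0.302). Gnai2, an inhibitory G protein alpha subunit that is also abundant in microglia, was at 46.0, 41.7 and 46.1 FPKM in KO, against 60.7, 53.4 and 54.7 in WT. The 13 listed microglial markers, none at 0 in every library, summed to 143 to 180 FPKM in KO and 202 to 274 in WT, and their part in Gnai2 was not tested. Rgs14, a regulator that limits Gi/o signalling, was at 13.4, 8.86 and 9.55 FPKM in KO, against 21.6, 15.5 and 12.4 in WT.

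Among genes of Gs and Gq signalling, 26 of 28 were tested and none passed, with 3 higher and 0 lower at an unadjusted p under 0.05 and a median of 0.09. Plcb4, a phospholipase C that Gq activates, was at 9.89, 10.5 and 12.4 FPKM in KO1 to KO3, against 3.37, 7.16 and 8.17 in WT1 to WT3 (limma adjusted p = 0.308). The adenylyl cyclase Adcy2 was at 34.3, 39.2 and 38.0 FPKM in KO, against 21.9, 30.6 and 32.4 in WT, and Adcy9 was at 22.3, 21.2 and 13.8 FPKM in KO, against 7.43, 16.8 and 10.5 in WT. WT1 had the lowest value of the 6 libraries for each of these 3 genes. Receptor kinases and arrestins had 6 of 7 tested, none passed and 0 were at an unadjusted p under 0.05 (median 0.06). The smallest p among them was that of Arrb1, at 32.5, 31.5 and 31.2 FPKM in KO, against 23.7, 28.9 and 34.0 in WT.

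Of the 18 listed genes of peptide processing and breakdown 16 were tested and none passed, with 1 higher and 1 lower at an unadjusted p under 0.05 and a median of 0.05. Pcsk1n, an inhibitor of a prohormone convertase, was at 455, 418 and 357 FPKM in KO1 to KO3, against 584, 550 and 574 in WT1 to WT3 (limma adjusted p = 0.302). Lnpep, an aminopeptidase that cleaves oxytocin and vasopressin, was at 14.5, 13.8 and 12.5 FPKM in KO, against 8.09, 11.9 and 10.5 in WT. Pcsk2, a prohormone convertase, was at 73.3, 57.3 and 53.6 FPKM in KO, against 43.6, 52.4 and 49.6 in WT.

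Markers of the neurons that carry these receptors were read in the same way. Of the 15 basolateral projection neuron markers 11 had a positive and 4 a negative log2 fold change (median 0.13). At an unadjusted p under 0.05, 5 were higher and 1 was lower, and Neurod6 had the smallest p. Neurod6, a transcription factor of excitatory neurons, was at 27.1, 34.1 and 28.8 FPKM in KO1 to KO3, against 7.06, 18.3 and 17.0 in WT1 to WT3. Of the 20 interneuron markers 19 were tested and 12 had a negative log2 fold change (median -0.07), with 0 higher and 4 lower at an unadjusted p under 0.05. Every KO value lay above every WT value for 2 of the 19 and below for 3, where the shares over all genes tested were 11.9% and 10.1%. Nos1, Slc32a1 and Sst, given next, had the smallest p of the 19 and were all lower, while 7 of the 19 were positive. Nos1, the neuronal nitric oxide synthase of a somatostatin and neuropeptide Y class of interneuron, was at 3.83, 3.60 and 4.96 FPKM in KO, against 12.7, 9.57 and 5.54 in WT. Of the peptides of that class, Sst was lower in KO (log2 fold change -0.57) and Npy overlapped between the groups (0.21). Slc32a1, the vesicular GABA transporter, was at 36.4, 35.2 and 43.1 FPKM in KO, against 52.6, 43.2 and 52.7 in WT. Their part in the receptor values was not tested.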

How the data were processed

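The deposited table gave FPKM per Ensembl gene, scaled by the authors, for 6 libraries. Per the labels' protocols, RNA came from a Qiagen column kit and libraries from a SMARTER mRNA kit. Per the submitters' processing notes the genome builds are GRCm38 and mm10. Aligner, counter, annotation version and strand setting were not given in the sources used here. Each FPKM times its gene length was a whole multiple of a library's smallest step in 100% of values above 0 (tolerance 0.01 reads), which recovered the reads behind each value.

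Genes with a mean of at least 1 FPKM (13087) were tested as log2(FPKM + 1) computed from the deposited values, so fold changes of low genes are understated. limma 3.58.1 in R 4.3.3 compared KO with WT (two-sided, empirical Bayes with trended variance, Benjamini-Hochberg over all genes tested, threshold 0.05), and the fit was tested on simulated data. Counting intervals are exact Poisson. Deviations from the group means correlated across genes between libraries of the same number, at 0.17, 0.15 and 0.33 for numbers 1, 2 and 3. The fit with the number as a block was run as an alternative only. It takes the pairing from these same data and not from the labels, so it cannot show that the numbers pair the libraries. KO1 correlated more with WT2 (0.28) than with WT1.

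The receptors and gene lists were chosen with earlier results of these data known. Genes named are the 10 receptors, their peptides, Cntnap4, up to 3 tested members of smallest p from the other lists, and the 3 genes most like the receptor of largest SD. From the central amygdala, striatal, glial, vascular and meningeal lists the text gives sums or counts, with few single genes. Rps27a and the other receptors named outside this rule (Sstr3, Sstr5, Npy4r, Npy6r, Trhr, Rxfp3, Qrfpr, Oprl1, Oprd1 and Oprk1) were chosen after their values were seen, the first 4 of these receptors to complete their families.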

Additional observations from a re-analysis of the deposited data

How the results depend on the processing

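The fold changes of the 10 receptors and the count of genes past the threshold were recomputed under 18 alternatives, 1 of them (WT3 as the only WT library) chosen after seeing the data. No receptor passed the threshold in limma under any of them. The 8 tested receptors other than Sstr1 kept their direction in all 18. Sstr1 reversed to 0.60 with WT3 as the only WT library, and leaving out 1 library at a time gave -0.57 to 0.11. Taking WT3 as the only WT library gave larger increases for Sstr4, Cckbr and Npy1r, with log2 fold changes of 1.03, 0.73 and 0.56. In that fit Crhr1, Npy5r, Sstr2, Oxtr and Npy2r differed less than in the fit reported, at 0.25, 0.25, -0.10, -0.44 and -0.05. For Oprm1 the log2 fold change of 0.05 was 0.19 with a pseudocount of 0.1 and 0.29 with voom on recovered reads, scales that compress low values less, and its range over the alternatives was -0.02 to 0.29. The count of genes past the threshold, 1 in the fit reported, was 0 with no filter, with a filter of 0.1 FPKM, with quantile normalization, without the variance trend, after removal of the trend with length, with the replicate block, without both WT3 and KO3 and with WT3 as the only WT library. At an unadjusted p under 0.05 these fits had 2487, 2288, 1940, 1826, 1528, 2327, 1882 and 1660 genes. Leaving out 1 library at a time gave 0 to 9 genes, the 9 without WT3. The replicate block changed no receptor's call. Depth limits Oprm1 and Npy5r most, with a mean of 25 and 90.5 reads per library. The peptides, other receptors, signalling and marker lists and family shares were not recomputed. The causes of these differences were not tested.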

Other observations

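Of the 18 tested receptors on the list of other neuropeptide receptors, 4 had their highest levels in WT1 and WT2 (Trhr, Rxfp3, Qrfpr and Oprl1), a grouping made after the values were seen. The share of all genes tested with this order was not computed, so the count cannot be read as a trait of receptors. Trhr and Rxfp3, with KO means of 0.685 and 0.573 FPKM, passed the level filter only through WT1 and WT2. Trhr, the receptor of thyrotropin-releasing hormone, was at 1.02, 0.490 and 0.546 FPKM in KO1 to KO3, against 6.91, 4.35 and 0.148 in WT1 to WT3. Its peptide gene Trh was at 0.308, 0.792 and 2.02 FPKM in KO, against 18.7, 21.6 and 1.28 in WT, and is on the list of hypothalamic and neighbouring markers. Rxfp3, the relaxin-3 receptor, was at 0.769, 0.567 and 0.383 FPKM in KO, against 3.56, 1.42 and 0.333 in WT. Qrfpr, the receptor of a hypothalamic RFamide peptide, was at 1.89, 1.89 and 1.44 FPKM in KO, against 3.80, 3.07 and 1.00 in WT. Oprl1, the nociceptin receptor, was at 12.9, 13.4 and 11.3 FPKM in KO, against 21.6, 14.0 and 9.41 in WT. In each of these genes WT3 lay within or below the KO range, as it did for Npy2r. The delta opioid receptor Oprd1 was at 5.53, 7.56 and 5.15 FPKM in KO, against 3.07, 5.03 and 5.48 in WT, and the kappa opioid receptor Oprk1 was at 0.506, 0.454 and 2.08 FPKM in KO, against 0.812, 0.573 and 2.73 in WT, highest in the libraries numbered 3.

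Marker lists of other cells are given here as values. Central amygdala markers (12 tested) summed to 254 to 395 FPKM in KO and 394 to 643 in WT, with 8 negative log2 fold changes and a median of -0.39. Most of that sum in every library came from Sst and Penk, which are also on the interneuron and striatal lists. For striatal markers 13 of 14 tested were negative (median -0.52). Of 13 microglial markers all 13 were negative (median -0.30), as were 11 of 12 astrocyte markers (median -0.22), 7 of 7 oligodendrocyte precursor markers (median -0.48), 12 of 13 vascular markers (median -0.21) and 8 of 8 tested meningeal and choroid plexus markers (median -0.77). Oligodendrocyte markers had 9 positive and 3 negative (median 0.33). None of these genes passed the threshold in limma.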
